A study of Mus musculus with 5 samples.

Results

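The nuclear genes for respiratory complexes III and IV and for ATP synthase were examined as a group, together with cytochrome c, the protein that carries electrons between the first pair. Members were the protein-coding nuclear genes whose symbol starts with Uqcr, with Cox followed by 4 to 8, or with Atp5, plus Cyc1 and Cycs. This symbol rule gave 45 genes, of which 1 is not analysed here, so that 44 of the 49341 genes in the libraries are described. They comprise 9 genes of complex III, 17 of complex IV, 17 of ATP synthase and Cycs. RNA had been sequenced from bone marrow-derived macrophages of wild type C57BL/6 mice, grown from marrow for 6 days. All cells received interleukin 4 (IL-4) at 10 ng/ml for 24 h before harvest. In 3 libraries (replicates 3, 4 and 5) the cells had first been given 30 µM CBR-5884, which inhibits PHGDH, the enzyme of the committed step of serine synthesis. In 2 libraries (replicates 3 and 5) they had first been given solvent. The medium for differentiation held either recombinant CSF1 or L929-conditioned supernatant, and which of these each library had is not stated. The labels are silent on which animals or cultures the replicates came from, so the p-values speak only of the spread among these libraries, some or all of which may be technical. Macrophages without IL-4 were not analysed here.

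Complex III passes electrons from ubiquinol to cytochrome c, and complex IV (cytochrome c oxidase) passes them on to oxygen. Both pump protons across the inner mitochondrial membrane, and ATP synthase lets the protons flow back and uses their energy to make ATP. Macrophages activated by IL-4 are known for relying on this oxidative route, and both groups compared here come from such cells.

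The transcripts of these complexes were abundant in both groups, and most had slightly lower values with CBR-5884. Levels are gene FPKM, that is, fragments per kilobase relative to the library's mapped fragments, added up over all transcripts assigned to a gene. Summed over complex III, the level was 1201, 1235 and 1288 FPKM with CBR-5884 and 1400 and 1439 FPKM with solvent. Summed over complex IV it was 2151, 2229 and 2225 FPKM with CBR-5884 and 2524 and 2469 FPKM with solvent. For ATP synthase the sums were 3373, 3452 and 3353 FPKM with CBR-5884 and 3742 and 3891 FPKM with solvent. In each complex every CBR-5884 library lay below every solvent library, and the mean with CBR-5884 was 87.5%, 88.2% and 88.9% of that with solvent for complexes III and IV and ATP synthase. The same ratio was 97.0% for the sum over all genes tested and 97.0% for tested genes with a mean of at least 50 FPKM. For the 824 tested genes with a longest reference transcript under 800 nt it was 85.3%, below the ratio of each complex. That sum was 78289 FPKM in solvent replicate 5 but 68975 FPKM in solvent replicate 3. Taken gene by gene, the median ratio of these short genes was 93.2%, above the medians of 88.4%, 88.9% and 87.6% for complexes III and IV and ATP synthase. In these bulk libraries fewer cells with high levels and less RNA per cell cannot be told apart.

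Of the 44 members, 39 reached a mean of 1 FPKM over the libraries and were tested among 10770 genes with limma on log2(FPKM + 1), two-sided, with Benjamini-Hochberg adjustment. None of the 39 passed an adjusted p of 0.05, at which 19 of all genes tested (0.176%) were called lower with CBR-5884 and 5 (0.0464%) higher. With any 1 library left out these counts were 11 to 78 lower and 8 to 11 higher. The smallest adjusted p among the members was 0.085, for Cox8a. At an unadjusted p below 0.05, 18 of the 39 were lower and 0 higher, where 12.4% of all genes tested were lower and 7.24% higher. All 3 CBR-5884 libraries lay below both solvent libraries for 22 members and above them for 3, against 24.9% and 16.6% of all genes tested. The log2 fold change (CBR-5884 minus solvent) was negative for 34 of the 39, against 55.7% of all genes. The median was -0.17 over the 39 members and -0.03 over all genes tested.

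Level and transcript length give further backgrounds for these counts. Genes with a mean of at least 50 FPKM, of which there were 1518, stood at a median of -0.05 in log2 fold change, with 59.7% negative. Members are short, with a median of 738 nt for the longest reference transcript (365 to 4715 nt), against 2883 nt over all genes tested. Among the 824 tested genes with a longest reference transcript under 800 nt the median was -0.10, and 60.2% were negative. The balance of all genes also moved with the scaling between libraries. When FPKM was rescaled to the TPM scale (a fixed summed gene FPKM in each library), 1170 genes were higher and 1018 lower at an unadjusted p below 0.05, against 780 and 1334 without rescaling. On that scale 48.5% of all genes were negative, and so were 8 of 9 tested genes of complex III, 10 of 12 of complex IV and 12 of 17 of ATP synthase. With median-ratio size factors the shares were 49.3% of all genes and 9, 10 and 12 members of the complexes, and with quantile normalization 47.1% and 7, 10 and 12.

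**Figure D1:**
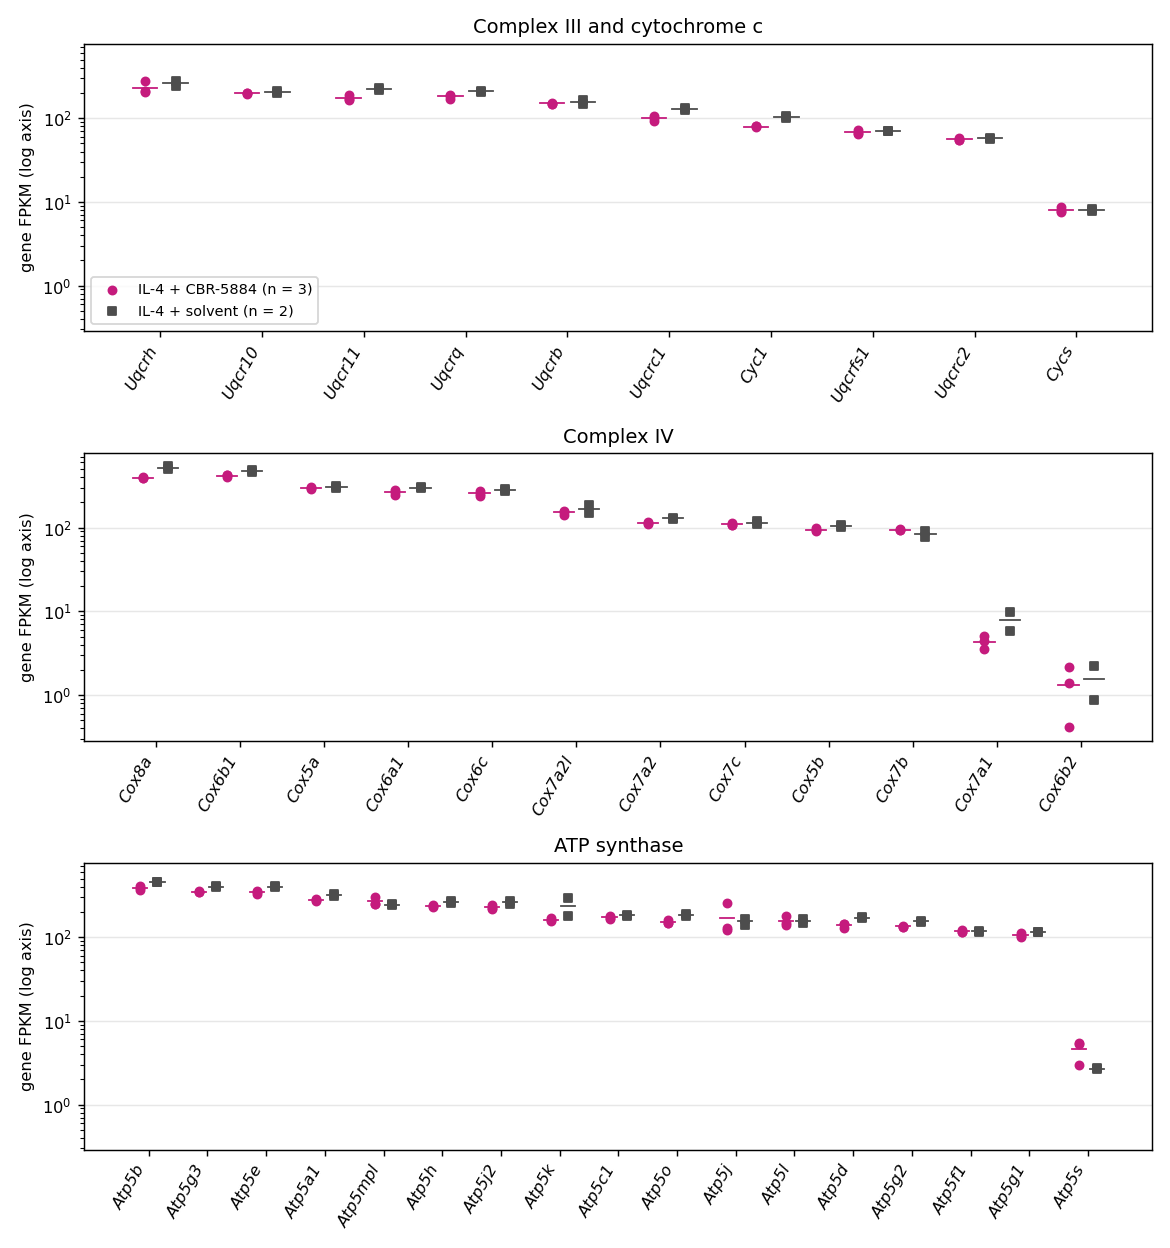
Gene FPKM on a log axis for the 39 tested members, ordered by mean level within each complex. Circles are the 3 CBR-5884 libraries, squares the 2 solvent libraries and bars the group means; most members of each complex lie above 50 FPKM, and Cycs, Cox7a1, Cox6b2 and Atp5s lie below 10 FPKM.

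The promoters of these genes are shown because most members had lower values together, and because nuclear respiratory factor 1 (NRF-1) and ETS-family factors such as GABP (also called NRF-2) are the best known regulators of the nuclear respiratory genes. RefSeq windows of GRCm38.p6, from 250 bases before to 50 bases after the gene start, were found for 34 members, 32 of them tested. Both strands were searched for the letters of NRF-1 (GCGC, any 2 bases, GCGC) and of the ETS family (CCGGAAG); neither motif contains the other. Of the 32 tested members, 8 held the NRF-1 letters (25%), against 7.0% of 27025 genes with a window. The ETS letters stood in 10 of the 32 (31.25%), against 9.93% of the same 27025 genes, and 15 members held at least 1 of the motifs. The 27025 are all genes with a window, tested here or not, so they are an unlike set to the tested members. Shares among tested genes alone were not computed. The median log2 fold change was -0.20 for members with the NRF-1 letters and -0.14 for those without. For the ETS letters the medians were -0.19 with and -0.14 without. Transcripts of members with the letters also had a higher median GC share (NRF-1, 53.9% with and 51.8% without; ETS, 54.3% with and 51.02% without), and the part of base composition in these medians was not tested. A match is a description of these letters and not of a bound factor.

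The 4 windows below were chosen after the values were seen and do not show every kind of promoter. Atp5b, Atp5d and Cox7a1 had no match at log2 fold changes of -0.24, -0.31 and -0.70. Atp5l and Atp5j had ETS matches at -0.02 and 0.05. Without CBR-5884 replicate 3 the log2 fold change of Atp5j was -0.29. Each window is printed 5′ to 3′ on the strand of its gene, with motif letters of either strand in capitals.
Cox8a (chr19:7217567-7217866, minus strand, smallest p of the members): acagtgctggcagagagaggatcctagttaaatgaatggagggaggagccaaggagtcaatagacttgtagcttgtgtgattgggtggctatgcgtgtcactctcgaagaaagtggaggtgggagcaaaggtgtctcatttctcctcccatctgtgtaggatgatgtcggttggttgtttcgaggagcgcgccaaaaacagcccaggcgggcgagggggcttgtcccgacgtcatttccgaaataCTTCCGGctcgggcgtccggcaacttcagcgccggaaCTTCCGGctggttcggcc
Uqcrc1 (chr9:108936398-108936697, plus strand, a core subunit with lower values): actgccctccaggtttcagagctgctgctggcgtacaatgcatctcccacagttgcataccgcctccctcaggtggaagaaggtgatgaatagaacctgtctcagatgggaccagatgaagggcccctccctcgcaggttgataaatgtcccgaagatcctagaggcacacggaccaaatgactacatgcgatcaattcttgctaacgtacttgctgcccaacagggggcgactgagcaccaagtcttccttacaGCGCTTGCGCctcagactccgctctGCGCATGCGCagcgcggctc
Cox6a1 (chr5:115348909-115349208, minus strand, both motifs): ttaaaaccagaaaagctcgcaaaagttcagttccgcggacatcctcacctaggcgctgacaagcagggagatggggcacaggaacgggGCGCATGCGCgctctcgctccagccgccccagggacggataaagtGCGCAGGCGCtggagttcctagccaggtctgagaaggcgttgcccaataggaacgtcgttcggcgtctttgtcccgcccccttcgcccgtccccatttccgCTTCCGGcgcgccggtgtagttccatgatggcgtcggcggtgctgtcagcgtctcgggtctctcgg
Cox7b (chrX:106015450-106015749, plus strand, higher values and no match): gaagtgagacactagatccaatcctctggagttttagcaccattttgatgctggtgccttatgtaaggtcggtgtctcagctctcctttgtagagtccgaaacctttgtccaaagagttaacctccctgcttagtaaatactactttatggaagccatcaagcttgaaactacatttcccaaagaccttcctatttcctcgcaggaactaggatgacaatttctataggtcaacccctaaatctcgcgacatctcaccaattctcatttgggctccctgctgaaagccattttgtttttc
The capitals of Cox8a are a pair of ETS matches, whose first bases stand 5 bases before and 33 bases after the start. Those of Uqcrc1 are a pair of NRF-1 matches, 6 and 31 bases after it. In Cox6a1 NRF-1 matches begin 162 and 117 bases before the start, and an ETS match begins 16 bases before it. The window of Cox7b has 43.3% G and C, and those of Cox8a, Uqcrc1 and Cox6a1 have 56%, 56.3% and 63%.

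Complex III had lower values with CBR-5884 in its cytochrome c1 and in core subunit 1, while its Rieske protein and core subunit 2 overlapped between groups. All 9 genes were negative in log2 fold change, from -0.38 to -0.04 around a median of -0.19, and 5 of the 9 lay apart with CBR-5884 lower, as did 24.9% of all genes tested. That median was -0.10 without solvent replicate 5, -0.12 without CBR-5884 replicate 3 or without replicate 4, and -0.06 on reference transcripts alone. Cyc1 encodes cytochrome c1, the heme protein that hands electrons to cytochrome c (chromosome 15, 76343523 to 76346260, GRCm38). It had 80.3, 80.2 and 78.2 FPKM in the CBR-5884 libraries against 105 and 99.7 FPKM in the solvent libraries. The groups stood apart by far more than the spread within either, yet the log2 fold change of -0.36 (SE 0.05) did not pass over all genes (limma adjusted p = 0.092). In CBR-5884 replicate 3, 34.4 FPKM of the 80.3 FPKM came from an assembled transcript of 1056 nt. On reference transcripts alone that library was at 45.9 FPKM, and the log2 fold change was -0.63 (limma adjusted p = 0.429). Uqcrc1, the first core subunit, had 91.5, 106 and 101 FPKM in the CBR-5884 libraries against 126 and 132 FPKM in the solvent libraries (log2 fold change -0.38, SE 0.08; adjusted p = 0.136 in limma). Uqcrc2, its partner in the core, had 55.3, 57.6 and 55.6 FPKM in the CBR-5884 libraries against 58.7 and 57.1 FPKM in the solvent libraries (log2 fold change -0.04). The core subunits stand in equal number in the complex, yet only Uqcrc1 stood apart between groups, and the difference between the pair was not tested. Their transcripts differ in GC share, 57.5% for Uqcrc1 and 44.4% for Uqcrc2. With the GC correction given below, their log2 fold changes were -0.23 and -0.10. Uqcrfs1, the Rieske iron-sulfur protein that takes electrons from ubiquinol, had 64.1, 66.3 and 72.5 FPKM in the CBR-5884 libraries against 70.0 and 70.7 FPKM in the solvent libraries, so the highest library was one with CBR-5884.

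The small subunits of complex III were its most abundant transcripts. Uqcrh, the acidic hinge subunit that helps cytochrome c dock, had 207, 209 and 279 FPKM in the CBR-5884 libraries against 245 and 280 FPKM in the solvent libraries. The high library of each group, replicate 5, was the one in which an assembled transcript shorter than the reference had been added. Uqcr10 had 193, 202 and 202 FPKM in the CBR-5884 libraries against 202 and 212 FPKM in the solvent libraries, a ratio of means of 96.1%. Its groups touched without crossing. Uqcr11 had 190, 171 and 166 FPKM in the CBR-5884 libraries against 232 and 219 FPKM in the solvent libraries (log2 fold change -0.36, SE 0.08; adjusted p = 0.14 in limma). Uqcrq was lower in every CBR-5884 library (171, 191 and 185 FPKM) than in the solvent libraries (213 and 205 FPKM), and Uqcrb overlapped (149, 153 and 148 FPKM against 147 and 165 FPKM). The 4 small subunits Uqcrb, Uqcrq, Uqcr10 and Uqcr11 had a median log2 fold change of -0.13.

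Values of somatic cytochrome c overlapped between groups, while the sums of the complexes on either side of it did not. Cycs (chromosome 6, 50562563 to 50566538) had 7.90, 8.69 and 7.66 FPKM in the CBR-5884 libraries against 7.81 and 8.24 FPKM in the solvent libraries (log2 fold change 0.01, SE 0.07; adjusted p = 0.962 in limma). Its level is uncertain, because its transcripts share at least 75 nt at 95% identity or more with 29 other annotated genes, whose summed level was 67.8 FPKM. That sum does not measure how many reads are shared. The long matches, Gm10053 (946 nt) and 3 pseudogenes (300 to 319 nt), were at 0.0718 FPKM or less. The other stretches were of at most 140 nt, among them those of Uggt1 (20.7 FPKM) and Acbd6 (12.0 FPKM). Of the tested members 18 share such stretches with other genes, 16 of them with pseudogenes. Apart from Cycs, the matching genes summed to 5.47 FPKM for Atp5l, 2.06 FPKM for Cox7c and less than 1 FPKM for each other member.

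Complex IV held the member with the clearest separation between groups, Cox8a, and also a member with higher values, Cox7b. Of its 17 genes 12 were tested, 11 had a negative log2 fold change, and the median was -0.15 with a range of -0.70 to 0.16. Cox8a encodes subunit VIII, a small membrane subunit (chromosome 19, 7215153 to 7217616). Its level was 391, 399 and 396 FPKM with CBR-5884 and 538 and 507 FPKM with solvent. The CBR-5884 libraries lay close together, far below either solvent library. The 95% intervals that accompany the deposited values, which cover estimation within a library, ran from 379 to 409 FPKM with CBR-5884 and from 492 to 554 FPKM with solvent. The log2 fold change was -0.40 (SE 0.04; adjusted p = 0.085 in limma), and no assembled transcript was assigned to the gene. When the fit was restricted to genes with no assembled transcript in any library, Cox8a passed (limma adjusted p = 0.049), the only call of a member under the settings tried. Its promoter is the one printed above with a pair of ETS matches.

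The other abundant subunits of complex IV differed less. Cox6b1, which faces the intermembrane space, had 407, 428 and 423 FPKM in the CBR-5884 libraries against 494 and 462 FPKM in the solvent libraries (log2 fold change -0.19, SE 0.05; adjusted p = 0.177 in limma). Cox7a2, the ubiquitous isoform of subunit VIIa, had 110, 115 and 115 FPKM in the CBR-5884 libraries against 132 and 126 FPKM in the solvent libraries (log2 fold change -0.18, SE 0.05; adjusted p = 0.17 in limma). Cox6a1, the ubiquitous isoform of subunit VIa, had 248, 280 and 264 FPKM in the CBR-5884 libraries against 306 and 296 FPKM in the solvent libraries. In all of these genes the groups stood apart, and the means with CBR-5884 were 87.7% to 88% of those with solvent. Cox5a, Cox6c and Cox7c, also present in every tissue, overlapped between groups with log2 fold changes of -0.03, -0.13 and -0.06, and Cox5b stood apart at -0.14. Cox7b differed in direction from the rest. It had 93.3, 97.5 and 92.9 FPKM in the CBR-5884 libraries against 77.4 and 91.8 FPKM in the solvent libraries, so that solvent replicate 5 nearly met the CBR-5884 libraries (log2 fold change 0.16, SE 0.09; adjusted p = 0.373 in limma). Without solvent replicate 3 the log2 fold change was 0.04, and without solvent replicate 5 it was 0.28.

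Cox7a2l, also called SCAF1, links complexes III and IV into supercomplexes, and C57BL/6 mice are known to carry a short form of its protein. It had 160, 140 and 155 FPKM in the CBR-5884 libraries against 188 and 150 FPKM in the solvent libraries, and the groups overlapped (log2 fold change -0.15, SE 0.12; adjusted p = 0.55 in limma). Without solvent replicate 3 its log2 fold change was 0.02, and without solvent replicate 5 it was -0.31. Ndufa4, now counted as a subunit of complex IV although named after complex I, had 212, 202 and 219 FPKM in the CBR-5884 libraries against 201 and 217 FPKM in the solvent libraries (log2 fold change 0.01).

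Tissue-restricted isoforms of complex IV were low or listed at 0. Cox4i2 of lung, Cox7b2 and Cox8c of testis and Cox8b of heart and muscle were listed at 0 in all 5 libraries. An exact 0 in estimates of this kind can also be a failed estimate. Cox6a2, the heart and muscle isoform of VIa, had 0.702, 0.717 and 1.00 FPKM in the CBR-5884 libraries against 0.851 and 0.562 FPKM in the solvent libraries, below the level needed for a test. Its ubiquitous counterpart Cox6a1 was far higher in every library. Cox6b2 of testis had 2.19, 0.410 and 1.39 FPKM in the CBR-5884 libraries against 0.862 and 2.22 FPKM in the solvent libraries. Cox7a1, the heart and muscle isoform of VIIa, had 3.58, 4.38 and 5.02 FPKM in the CBR-5884 libraries against 5.90 and 9.77 FPKM in the solvent libraries. Its log2 fold change was -0.70 (SE 0.24; adjusted p = 0.226 in limma). In solvent replicate 5, the highest, 3.89 FPKM came from an assembled transcript, and without that library the log2 fold change was -0.38, as it was on reference transcripts alone. Defining genes of muscle were near 0: Myh6 and Myh7 were listed at 0 throughout, and the 4 muscle and heart markers summed to at most 0.0971 FPKM with CBR-5884 and 0.184 FPKM with solvent.

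ATP synthase had lower values with CBR-5884 in its catalytic head and its c ring, and mixed values in the stalk and the small membrane subunits. All 17 genes were tested, 14 had a negative log2 fold change, and the median was -0.19 with a range of -0.51 to 0.56. The groups lay apart with CBR-5884 lower for 11 genes and higher for 2, against 24.9% and 16.6% of all genes tested. Of the F1 head, all 5 genes were negative with a median of -0.23. Atp5b, the beta subunit that carries the catalytic sites (chromosome 10, 128083273 to 128090391), had 368, 404 and 385 FPKM in the CBR-5884 libraries against 459 and 450 FPKM in the solvent libraries (log2 fold change -0.24, SE 0.05; adjusted p = 0.148 in limma). Atp5a1, the alpha subunit that alternates with beta in the head, had 269, 289 and 275 FPKM in the CBR-5884 libraries against 324 and 310 FPKM in the solvent libraries (log2 fold change -0.19, SE 0.05; adjusted p = 0.177 in limma). Both groups were tight in each gene and did not meet. The delta subunit gene Atp5d, part of the rotor foot, had 127, 144 and 142 FPKM in the CBR-5884 libraries against 169 and 173 FPKM in the solvent libraries (log2 fold change -0.31, SE 0.07; adjusted p = 0.144 in limma). Atp5e, the epsilon subunit beside it, had 328, 358 and 343 FPKM in the CBR-5884 libraries against 396 and 406 FPKM in the solvent libraries (log2 fold change -0.23). Atp5c1, the gamma subunit that forms the shaft, overlapped between groups, with 170, 181 and 164 FPKM with CBR-5884 and 183 and 180 FPKM with solvent.

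The c ring is the proton-driven rotor, and 3 genes encode the same mature c subunit with different targeting peptides. Atp5g3 was the most abundant of them, with 341, 356 and 345 FPKM in the CBR-5884 libraries against 405 and 397 FPKM in the solvent libraries (log2 fold change -0.21, SE 0.04; adjusted p = 0.132 in limma). Atp5g2 had 133, 136 and 133 FPKM in the CBR-5884 libraries against 157 and 152 FPKM in the solvent libraries (log2 fold change -0.20, SE 0.04; adjusted p = 0.136 in limma). Atp5g1 had 100.1, 113 and 104 FPKM in the CBR-5884 libraries against 116 and 115 FPKM in the solvent libraries (log2 fold change -0.13, SE 0.07; adjusted p = 0.357 in limma). In none of the 3 genes did the groups meet. Together they summed to 574, 605 and 582 FPKM with CBR-5884 and to 677 and 664 FPKM with solvent, 87.5% as a ratio of means.

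In the peripheral stalk, which holds the head still against the turning rotor, the genes differed among themselves. Atp5o, which encodes the OSCP subunit between stalk and head, had 148, 161 and 149 FPKM in the CBR-5884 libraries against 181 and 188 FPKM in the solvent libraries (log2 fold change -0.27, SE 0.06; adjusted p = 0.139 in limma). Atp5h, subunit d, had 228, 243 and 233 FPKM in the CBR-5884 libraries against 273 and 255 FPKM in the solvent libraries, again without overlap. Atp5f1, subunit b, had 116, 123 and 115 FPKM in the CBR-5884 libraries against 116 and 120 FPKM in the solvent libraries, a ratio of means of 99.7%. Subunits b and d belong to the same stalk, and their log2 fold changes were -0.00 and -0.17. Exons of Atp5o overlap 356 nt of Gm15976 and those of Atp5f1 overlap 337 nt of Wdr77 on the opposite strand. Of the tested members 10 have such an overlap, among them Atp5d (68 nt of Cbarp) and Atp5a1 (129 nt of Haus1). The kit was directional, but no source used here gives the strand setting behind the estimates, so the part of antisense reads in these values was not tested.

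**Figure D2:**
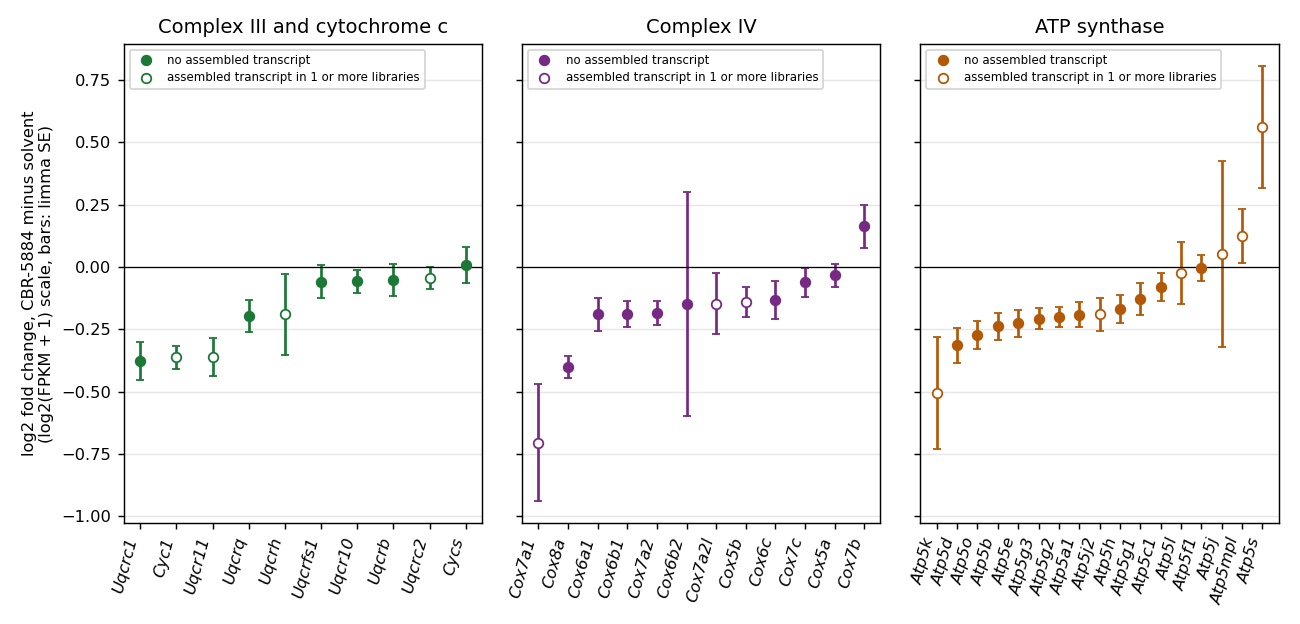
Log2 fold change (CBR-5884 minus solvent, log2(FPKM + 1) scale) with limma's SE for each tested member, by complex and in rising order. Filled points have no assembled transcript in any library and open points have at least 1; the negative values of Cox8a, Uqcrc1, Atp5d and the c ring genes rest on reference transcripts alone, and the wide bars belong to Atp5j, Atp5k, Atp5s, Cox7a1 and Cox6b2.

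A few members owe their values to short transcripts that had been assembled from the reads of 1 library. Such transcripts were assigned to 13 of the 39 tested members, and to none of the other 26. Atp5j, coupling factor 6 of the stalk, had 257, 128 and 122 FPKM in the CBR-5884 libraries against 141 and 166 FPKM in the solvent libraries. The high value, in CBR-5884 replicate 3, came whole from an assembled transcript of 484 nt, while its reference transcripts of 680 to 809 nt were not used there. Reads over a shorter transcript give a higher FPKM. When FPKM was converted to covered bases over the longest reference transcript, the log2 fold change turned to -0.17, from 0.05 on summed FPKM. Exons of Atp5j also overlap 397 nt of Gabpa on the opposite strand. Atp5k, subunit e, had 170, 162 and 154 FPKM in the CBR-5884 libraries against 180 and 295 FPKM in the solvent libraries. Here solvent replicate 5 stood out, with 144 FPKM from an assembled transcript of 234 nt, and the log2 fold change was -0.51 on summed FPKM, -0.36 on covered bases, -0.03 on reference transcripts alone and -0.15 without that library.

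Atp5mpl, a small proteolipid of the membrane part, had 249, 247 and 304 FPKM in the CBR-5884 libraries against 242 and 245 FPKM in the solvent libraries (log2 fold change 0.12, SE 0.11; adjusted p = 0.569 in limma). The groups did not meet, but the highest library, CBR-5884 replicate 5, held 253 FPKM from an assembled transcript, and without it the log2 fold change was 0.03. Atp5s, named as coupling factor B, had 2.99, 5.41 and 5.30 FPKM in the CBR-5884 libraries against 2.65 and 2.72 FPKM in the solvent libraries. It was the member with the most positive log2 fold change, 0.56 (SE 0.24; adjusted p = 0.303 in limma), which was 0.19 on covered bases. All 5 libraries had assembled transcripts of this gene, of 373 to 1891 nt. Of the other subunits of the membrane part, Atp5j2 (subunit f) had 219, 225 and 241 FPKM in the CBR-5884 libraries against 250 and 271 FPKM in the solvent libraries. The 241 FPKM, in CBR-5884 replicate 5, came whole from an assembled transcript of 503 nt. The log2 fold change of Atp5j2 was -0.19 on summed FPKM and -0.22 on covered bases. Atp5l (subunit g) overlapped, with 146, 177 and 139 FPKM with CBR-5884 and 148 and 164 FPKM with solvent.

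Leaving out assembled transcripts altogether turned the sign for 5 members: Uqcrc2 (log2 fold change 0.83), Uqcr11 (0.80), Cox7a2l (0.28), Atp5j (-2.62) and Atp5mpl (-0.91). In Uqcrc2, 41.8 FPKM of solvent replicate 3 had been assigned to an assembled transcript of 1776 nt and 16.9 FPKM to the reference transcript of 1896 nt. Reads had thus been divided between near-identical transcripts in some libraries and not in others. On covered bases only Atp5j changed sign. Among the 26 members with no assembled transcript, 24 were negative in log2 fold change, and the median was -0.18.

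**Figure D3:**
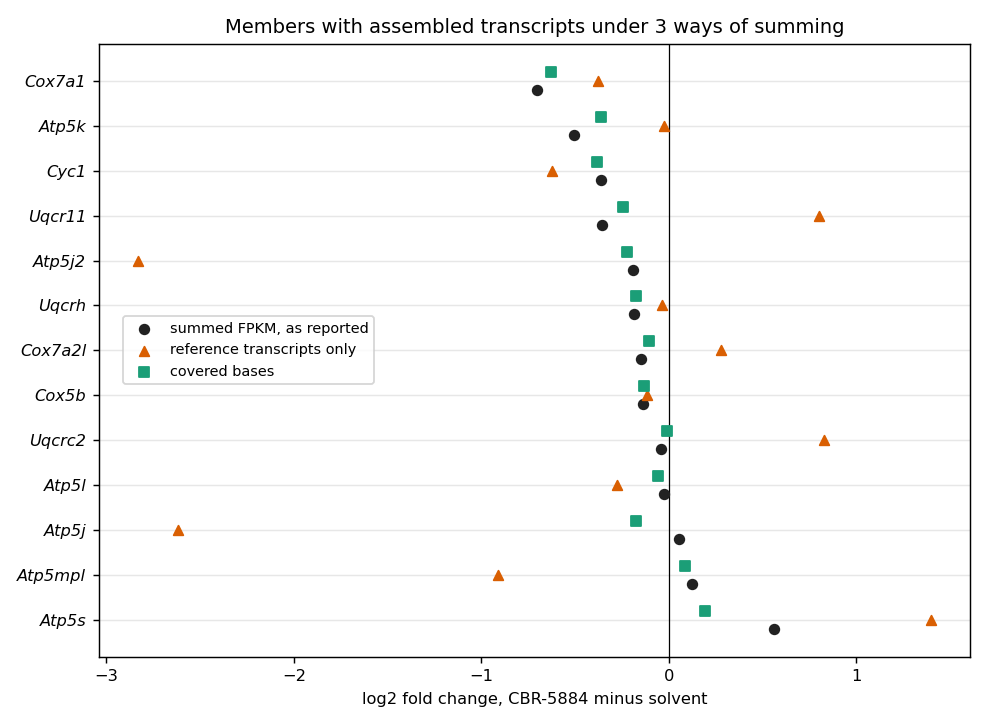
Log2 fold change (CBR-5884 minus solvent) of the 13 members with assembled transcripts under 3 ways of summing. Circles (summed FPKM) and squares (covered bases) share a sign in every gene but Atp5j, while triangles, for reference transcripts alone, reach -2.83 for Atp5j2 and 1.40 for Atp5s. Reference transcripts were at 0 in CBR-5884 replicate 5 for Atp5j2 and in solvent replicate 3 for Atp5s.

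The fold changes of the members also moved with base composition. Across the 39 tested members, Pearson's r between the log2 fold change and the GC share of the most abundant reference transcript was -0.70 (Spearman's rho -0.72). These points share the same 5 libraries and are not independent. Within complex III r was -0.74 (9 genes), within complex IV -0.69 (12 genes) and within ATP synthase -0.73 (17 genes). Over 10734 of the genes tested r was -0.16 and rho -0.39. Cox7b, Atp5s and Atp5mpl, the members with the most positive values, had GC shares of 42.0%, 39.0% and 42.9%. Cox8a, Uqcrc1, Uqcr11 and Atp5d, among the members with the most negative values, had 58.5%, 57.5%, 58.9% and 61.1%. Cox7a1 and Atp5k, the most negative of all (-0.70 and -0.51), had 54.7% and 53.9%. Some members with a high GC share differed little between groups: Uqcr10 (-0.06) and Atp5g1 (-0.13) had 55.5% and 56.4%. Atp5j, with 56.0%, was at 0.05 on summed FPKM but at -0.17 on covered bases. Cox7b, the positive member of complex IV, also had the lowest GC share of its tested genes.

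All genes showed the same ordering. Their median log2 fold change was 0.09 below 45% GC, 0.00 from 45% to 50%, -0.08 from 50% to 55% and -0.15 at 55% or more. In the same classes the members had medians of 0.07 (6 genes), -0.08 (11 genes), -0.22 (10 genes) and -0.20 (12 genes). The members' median was the lower of the pair in each class. Each library had its own lean: genes at 55% or more deviated from genes below 45% by -0.13, -0.10 and -0.06 with CBR-5884 and by 0.20 and 0.09 with solvent, in log2. This lean split along the groups, so that base composition and treatment cannot be told apart. With a GC correction the median of all genes was 0.00, and the medians of complexes III and IV and ATP synthase were -0.14, -0.12 and -0.08. With GC and length corrected together they were -0.09, -0.06 and -0.05. Cox8a, at -0.40 without correction, had a log2 fold change of -0.25 with GC corrected (limma adjusted p = 0.128) and of -0.21 with GC and length corrected (limma adjusted p = 0.175). Cyc1 was at -0.24 and Uqcrc1 at -0.23 with GC corrected. Other members whose groups lay apart kept less of their change. Cox6a1, at -0.19 without correction, was at -0.03 with GC corrected, and Uqcrq, at -0.20 without, was at -0.05. The c ring genes Atp5g1, Atp5g2 and Atp5g3 were at -0.001, -0.07 and -0.17 with GC corrected. Of the members with a positive value, Cox7b was then at 0.07 (limma adjusted p = 0.653), Atp5s at 0.43 and Atp5j at 0.17. The corrected values of Atp5s and Atp5j still held their assembled transcripts.

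**Figure D4:**
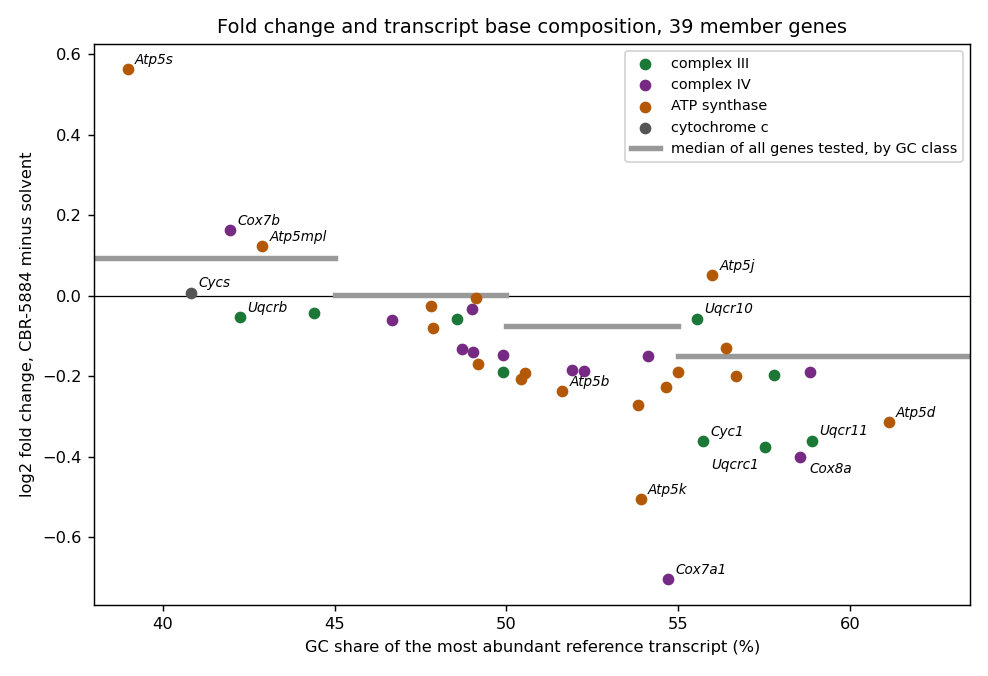
Log2 fold change (CBR-5884 minus solvent) of the 39 tested members against the GC share of the most abundant reference transcript, coloured by complex. Grey bars are the medians of all genes tested in 4 GC classes; members run from the upper left (Atp5s, Cox7b) to the lower right (Cox8a, Uqcr11).

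**Figure D5:**
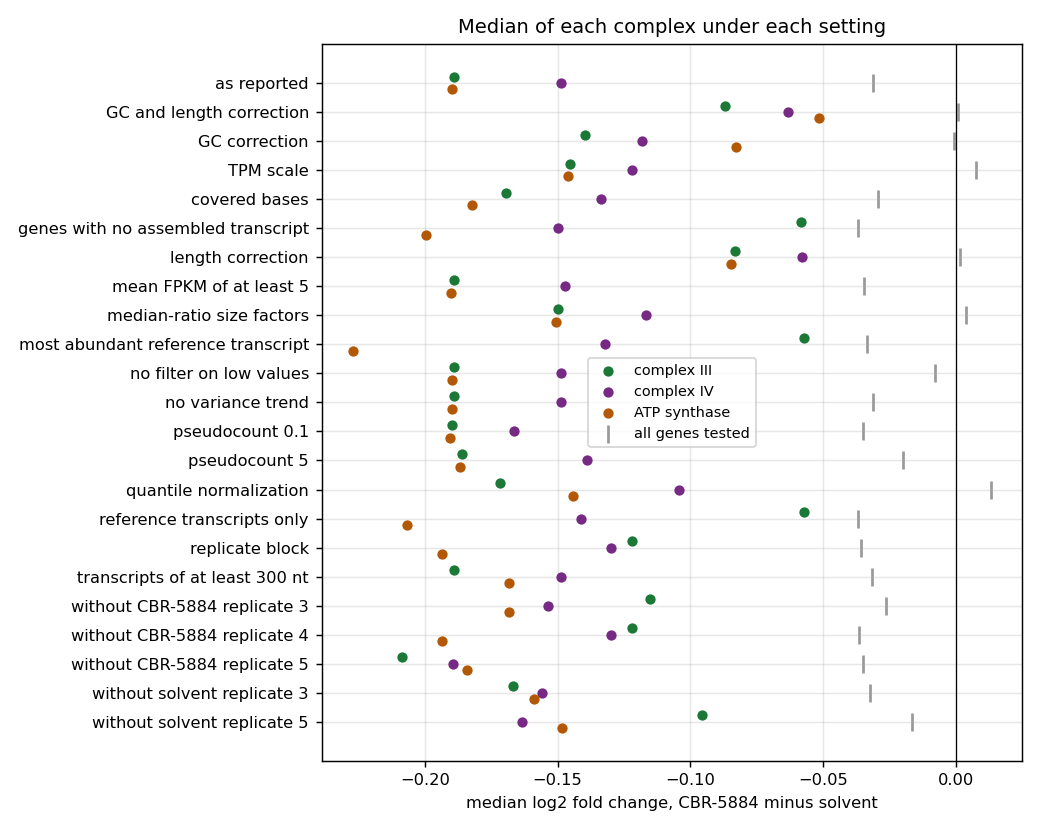
Median log2 fold change (CBR-5884 minus solvent) of each complex and of all genes tested under each setting. The medians of all 3 complexes lie left of the median of all genes in every row; complex III stands at -0.19 as reported and at -0.06 on reference transcripts alone.

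Partners of the complexes outside the symbol rule had medians nearer to 0 than the subunits. Of 26 tested assembly factors of complex IV, 21 had a negative log2 fold change, the median was -0.08, and none passed the test. Higd2a, which helps assemble complex IV and its supercomplexes, had 63.6, 64.9 and 63.7 FPKM in the CBR-5884 libraries against 81.5 and 79.3 FPKM in the solvent libraries (log2 fold change -0.32, SE 0.04; adjusted p = 0.092 in limma). Sco2, which delivers copper to the oxidase, had 13.4, 15.4 and 13.8 FPKM in the CBR-5884 libraries against 17.7 and 19.4 FPKM in the solvent libraries (log2 fold change -0.36, adjusted p = 0.147 in limma). Both had values that did not overlap between groups, as Cox14 did (log2 fold change -0.24). Of the 26 factors 7 lay apart with CBR-5884 lower and 3 with it higher, where 24.9% and 16.6% of all genes tested did so. Among the 3 was Cmc1, with 30.8, 29.8 and 31.9 FPKM in the CBR-5884 libraries against 27.8 and 26.5 FPKM in the solvent libraries (log2 fold change 0.18, SE 0.05; adjusted p = 0.198 in limma). The 4 tested assembly factors of complex III had a median of -0.13, with 4 negative, and the 5 of ATP synthase had a median of -0.09, with 3 negative. Complex II, the other entry to the chain, had a median of -0.08 over 4 genes. Its Sdha had 106, 110 and 106 FPKM in the CBR-5884 libraries against 117 and 116 FPKM in the solvent libraries.

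Regulators and suppliers of the chain gave mixed values. Among 13 tested nuclear regulators of respiratory and mitochondrial genes, 8 were negative, the median was -0.03 and none passed. Nrf1, which encodes the factor whose letters were searched above, had 6.22, 6.89 and 4.63 FPKM in the CBR-5884 libraries against 7.75 and 6.00 FPKM in the solvent libraries. Esrra, a nuclear receptor that drives respiratory genes, had 27.8, 28.5 and 27.2 FPKM in the CBR-5884 libraries against 33.9 and 54.8 FPKM in the solvent libraries (log2 fold change -0.61, SE 0.21; adjusted p = 0.232 in limma); solvent replicate 5 lay far above the other libraries. Without solvent replicate 3 the log2 fold change of Esrra was -0.95, and without solvent replicate 5 it was -0.27. With all 5 libraries it was -0.24 on reference transcripts alone and with transcripts of at least 300 nt, and -0.29 on covered bases. Ppargc1b was listed at 0 in all libraries and Ppargc1a reached at most 0.0183 FPKM. Of 6 tested genes that supply heme, copper and phosphate, 4 were positive with a median of 0.10. Alas1, the first enzyme of heme synthesis, had 211, 242 and 256 FPKM in the CBR-5884 libraries against 201 and 190 FPKM in the solvent libraries (log2 fold change 0.27, SE 0.10; adjusted p = 0.249 in limma). The 9 genes of cristae and carriers had a median of -0.12, with 7 negative. Chchd3, a cristae organiser, had 26.5, 29.5 and 27.4 FPKM in the CBR-5884 libraries against 34.0 and 34.4 FPKM in the solvent libraries (log2 fold change -0.29, SE 0.06; adjusted p = 0.139 in limma).

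Depth was similar between the groups. The ratio of coverage to FPKM implied 30227068 to 30698831 mapped fragments in the CBR-5884 libraries and 28314193 and 28853377 in the solvent libraries. Macrophage markers summed to 9736 to 13066 FPKM with CBR-5884 and to 10998 and 13079 FPKM with solvent, and none of the 7 passed. Monocyte markers summed to 3.56 to 4.29 FPKM with CBR-5884 and to 7.94 and 8.81 FPKM with solvent, and Ccr2, a chemokine receptor of monocytes, fell (limma adjusted p = 0.040). Neutrophil markers summed to 10.4 to 12.9 FPKM with CBR-5884 and to 20.7 and 10.0 FPKM with solvent, and fibroblast markers to 5.18 to 8.49 FPKM with CBR-5884 and to 9.83 and 9.09 FPKM with solvent. Ly6g of neutrophils was listed at 0 in every library, as were the 3 erythroid markers. Marker lists of dendritic, T, B and mast cells summed to at most 0.719 FPKM with CBR-5884 and 1.53 FPKM with solvent. The part of the lower monocyte and fibroblast sums in the members' values was not tested.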

How the data were processed

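Total RNA of 5 libraries was read as 75 bp single reads from a directional kit, per the labels' protocols. Per the submitters' processing notes, alignment and assembly used Bowtie2, TopHat2, Cufflinks and build mm10 (GRCm38), with no versions, annotation or strand setting stated there. Each deposited file lists the authors' FPKM per transcript with a 95% interval, for reference and assembled transcripts, estimated library by library with no recorded normalization between libraries. Per the file contents, depth is known only as implied by coverage over FPKM.

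Reference transcripts were matched to genes through GENCODE M21 (GRCm38). Assembled transcripts of at least 200 nt went to the gene on their strand that covered at least 50% of their exonic bases; the rest held 64.0% to 70.3% of summed FPKM but 8.55% to 10.2% of covered bases. Gene FPKM was summed, and genes with a mean of at least 1 FPKM were tested with limma 3.58.1 in R 4.3.3 (lmFit, eBayes with a trend, two-sided) on log2(FPKM + 1), which understates changes of low genes; 95 genes missing in a library were not tested. GC share and length for the corrections were those of the most abundant reference transcript. Shared stretches were found with BLAST 2.17.0. The fit was tested on simulated data for 10770 genes. Of 100 genes changed by 1 log2 unit 79% were called, and of 100 changed by 2 log2 units 81%, with 12 false calls. Smaller changes, such as those of the members, were not simulated.

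Members and gene lists were chosen with earlier results of these data known, so their counts are descriptions. Values in every library are given for the genes of each complex with the smallest p, the highest levels, a positive log2 fold change of at least 0.1 or a sign that turns with the transcripts summed, and for Cyc1, Cycs, the catalytic and c ring genes and the isoform pairs of complex IV. Other genes (among them Atp5d, Atp5e, Atp5k, Atp5j2, Nrf1, Cmc1 and the remaining subunits) were named after their values were seen. Alternatives are listed in the closing section.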

Additional observations from a re-analysis of the deposited data

How the results depend on the processing

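Members' directions and tests were recomputed under the alternatives, with all 39 except for genes with no assembled transcript (26 members), a mean of at least 5 FPKM (37) and the most abundant reference transcript (38); covered bases, genes with no assembled transcript, and the corrections for GC, length or both were chosen after seeing the data. Medians of all 3 complexes stayed negative under each. Complex III, at -0.19, was at -0.14 with GC corrected, -0.15 on the TPM scale and with median-ratio size factors, -0.0585 for genes with no assembled transcript, -0.0570 for reference transcripts only and for the most abundant reference transcript, -0.0830 with length corrected, -0.0868 with GC and length corrected, and -0.21 to -0.10 with a library left out. Its number of negative genes was 5 of 5 with no assembled transcript and 5 of 9 with length corrected. Complex IV, at -0.15, was at -0.12 with GC corrected and with median-ratio size factors, -0.0578 with length and -0.0630 with both corrected, -0.10 with quantile normalization, and -0.19 to -0.13 with a library left out. ATP synthase, at -0.19, was at -0.0827 with GC, -0.0847 with length and -0.0517 with both corrected, -0.15 on the TPM scale and with median-ratio size factors, -0.14 with quantile normalization, and -0.19 to -0.15 with a library left out. Cox8a alone passed, in 1 setting, genes with no assembled transcript (1 member called), where 4453 genes entered the test and the adjustment.

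Genes called lower numbered 19, and 41 on covered bases, 6 at a mean of at least 5 FPKM, 33 with no filter and 11 with a pseudocount of 0.1; without solvent replicate 3 there were 78 and without CBR-5884 replicate 3 there were 11. Genes called higher numbered 5, and 22 on covered bases, 11 with no assembled transcript, 8 with length corrected, 3 at a mean of at least 5 FPKM or with a pseudocount of 5, 14 for the most abundant reference transcript and 19 for reference transcripts only; with a library left out there were 8 to 11. The causes were not tested. The groups share replicate numbers 3 and 5, and deviations of same-numbered libraries correlated at 0.07 and 0.08, so the numbers are not taken as pairs; with a replicate block 1 gene was called lower, 2 higher and 0 members, and the median of complex III was -0.12. Leaving out a library leaves a lone solvent library in 2 of the 5 cases, which is then assumed to vary like the others. An FPKM near 1 rests on few reads, which limits Cox6b2, Cox7a1 and Atp5s.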

Other observations

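Transcripts of the mitochondrial genome, which encodes the remaining subunits of these complexes, were listed in solvent replicate 5 alone (37 transcripts), so they enter no comparison. There mt-Co1, the catalytic subunit of complex IV, was at 3633 FPKM, mt-Cytb of complex III at 3094 FPKM and mt-Atp8 of ATP synthase at 12552 FPKM. By contrast mt-Co2 was at 42.0 FPKM, and mt-Co3 and mt-Atp6 were listed at 0 in that library, although these genes are transcribed together from the same strand. The overlapping pair mt-Atp8 and mt-Atp6 thus had the highest and the lowest listed value of the mitochondrial subunits.

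A pair of ATP synthase genes outside the symbol rule, chosen after their values were seen, had lower summed FPKM as well. Usmg5, the subunit also called DAPIT, had 218, 236 and 228 FPKM in the CBR-5884 libraries against 363 and 268 FPKM in the solvent libraries (log2 fold change -0.45, SE 0.14; adjusted p = 0.209 in limma). Without solvent replicate 3, the highest library, its log2 fold change was -0.24. The sign turned with the transcripts summed: it was 0.15 on reference transcripts alone and with transcripts of at least 300 nt, and -0.32 on covered bases. Atpif1, the inhibitor that stops ATP synthase from running backwards, had 236, 253 and 255 FPKM in the CBR-5884 libraries against 278 and 305 FPKM in the solvent libraries (log2 fold change -0.23, SE 0.07; adjusted p = 0.184 in limma). In both genes every CBR-5884 library lay below every solvent library, and neither passed the test.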
